A study of Mus musculus with 15 samples.

Results

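The CpGs described here lie in gene deserts of mouse sperm DNA, that is, on chromosomes 1 to 19 and more than 100 kb from every gene span of the RefSeq annotation of GRCm38.p6, the assembly that mm10 stands for. The rule uses position alone. It selected 5148 of 204492 listed CpGs, or 2.54% of the 202627 on these chromosomes, against 125465 inside gene spans and 72014 outside but within 100 kb of one. The DNA came from sperm of C57BL/6 males, generation G1. The assay was reduced representation bisulfite sequencing (RRBS): MspI cuts the DNA at CCGG sites, short fragments are treated with bisulfite and sequenced, and cytosines left unconverted are read as methylated. There were 7 libraries of the diet labelled Control and 8 of the diet labelled PR, which the series' design text gives as protein restricted. The labels do not say whether the sampled mice or a parent ate the diet, nor whether libraries share an animal, a mother or a preparation, so p-values measure only the spread between these libraries. The comparisons of interest are desert CpGs against CpGs within genes, and PR against Control.

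In mammals, DNA methylation is placed on cytosines of CpG pairs, and in mature sperm most of the genome outside CpG-rich promoters carries it. Methylated CpGs mutate readily, so CpGs are thinly spread over most of the genome. Gene deserts are long stretches with no annotated gene. Some border genes of development or of nerve cell adhesion and hold distant enhancers, while the role of others is not known.

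Read counts over all listed CpGs, where a read spanning several CpGs adds to each, ran from 6650912 to 11841657 per library. Over the desert CpGs they ran from 144438 to 275640, with a median coverage of a CpG between 27 and 49 reads, against 26 to 42 for CpGs in genes. At these medians a CpG at 50% is known to within 18.9 points or better (95%, normal approximation), which covers counting error only, since no molecular identifiers are described. No position is listed with fewer than 11 methylated reads in any library. A CpG with little methylation is therefore listed only where coverage is deep. The listed positions gave no check of the tissue label. At imprinted loci, 7 listed CpGs upstream of Meg3 and Rasgrf1, which carry methylation from the father, averaged 94.8%, close to the 95.4% of all autosomal CpGs. Loci methylated on the mother's copy could not be read, since a position without methylated reads is not listed.

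Desert CpGs were sparse. The annotation holds 1178 gaps between gene spans with DNA more than 100 kb from both sides, and 799 of these held a listed CpG. The deserts amount to 206 Mb, with 24.96 listed CpGs per Mb, against 106 per Mb over 1189 Mb of gene spans. Of the desert CpGs 32.4% were alone in their 1 kb window, against 15.98% of CpGs in genes. The deserts with listed CpGs had a median size of 344 kb and a median of 5 listed CpGs, with 145 holding 1 and 177 holding 10 or more. Chromosome 3 had the highest share of desert CpGs (4.23% of its listed positions) and chromosome 7 the lowest (1.07%). The median distance from a desert CpG to the nearest gene span was 147 kb and the longest 707 kb. In 0 of the desert CpGs did the mean coverage pass 200 reads, a depth reached by 196 CpGs in genes and 346 within 100 kb. The highest mean coverage of a desert CpG was 107 reads.

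Methylation of listed CpGs was high in the deserts, but lower than in genes. Positions with fewer than 11 methylated reads in any library are listed in neither class, so CpGs without methylation are left out of both. The mean over desert CpGs was 92.7% and the median CpG was at 97.2%, against 96.2% and 98.3% within genes and 94.1% and 97.9% up to 100 kb from a gene. In Control sperm the desert mean ran from 92.5% to 92.9% with a median of 92.7%, and in PR sperm from 92.5% to 93.0% with a median of 92.8%. The means in genes ran from 96.0% to 96.4% in Control and from 96.0% to 96.2% in PR sperm. No library's desert mean came near any library's mean in genes. Within libraries the desert mean was 3.44 ± 0.160 points lower (SD, n = 15), with differences from -3.76 to -3.20 and lower in 15 of 15 libraries. The exact two-sided sign-flip permutation p was 6.1e-05, the smallest that 32768 sign patterns can give, and it was also the adjusted p over 2 such comparisons (Benjamini-Hochberg). Against CpGs up to 100 kb from a gene the difference was -1.37 ± 0.148 points (SD, n = 15), lower in 15 of 15 libraries with the same exact permutation p. All libraries were read at the same positions, so this p covers the spread between libraries and not the choice of CpGs.

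**Figure D1:**
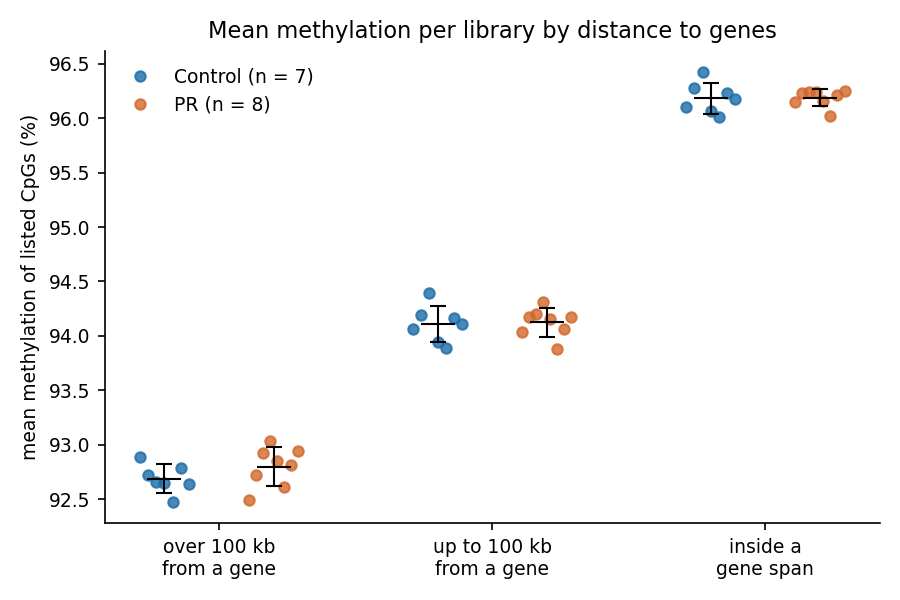
Mean methylation in percent (vertical axis, not starting at 0) of listed CpGs in 3 classes of distance to genes (horizontal axis); each point is 1 library, blue for Control (n = 7) and orange for PR (n = 8), with the mean and SD in black. Desert values lie between 92.5% and 93.0%, below all values of the other classes, and the diets overlap in each class.

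The lower mean came from a larger share of partly methylated CpGs. A mean under 90% was found at 1087 desert CpGs, or 21.1%, against 7.50% within genes and 14.3% up to 100 kb away. Between 50% and 80% lay 9.05% of desert CpGs, against 3.36% in genes and 6.37% up to 100 kb away. Under 50% lay 61 desert CpGs (1.18%), against 0.662% in genes and a larger share, 1.46%, up to 100 kb away. The lower quartile of the deserts was 91.9%, and that of genes 97.3%, whereas the upper quartiles were 98.5% and 98.9%. A mean under 20% was found at 0 listed desert CpGs, 44 in genes (0.0351%) and 42 up to 100 kb away (0.0583%). These counts cannot show how rare such levels are, since CpGs of low methylation are listed only where coverage is deep. The highest mean coverage of a CpG was 107 reads in deserts, 10332 in genes and 155236 up to 100 kb away. With 5148 desert CpGs, shares as small as those of the other classes could also not be told from 0. At the other end, 9 desert CpGs (0.175%) had only methylated reads in every library, against 0.493% in genes. Leaving out Control replicate 4 or 6 raised that count to 15, and leaving out Control replicate 7 to 14.

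**Figure D2:**
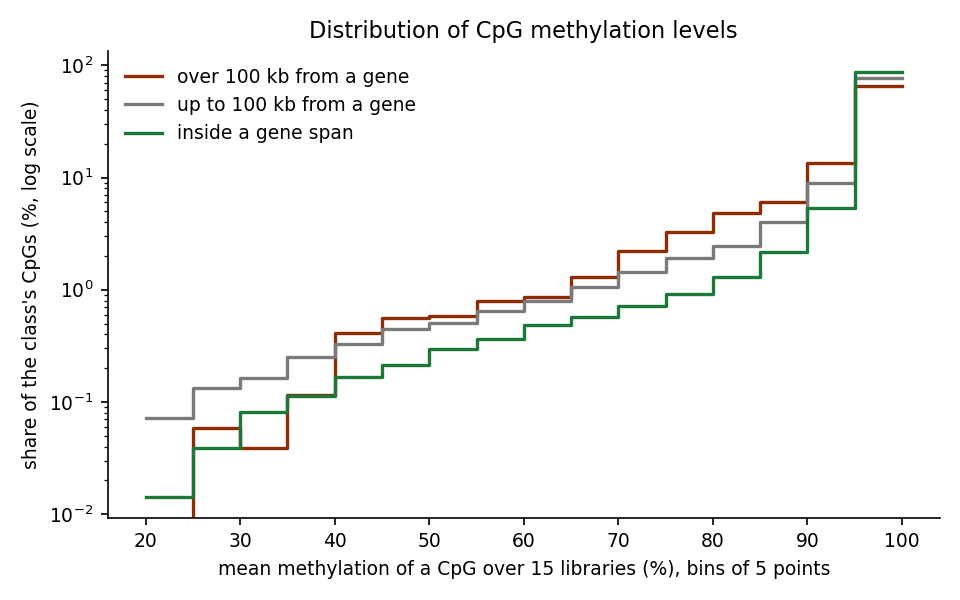
Share of each class's CpGs (vertical axis, percent, log scale) by mean methylation over 15 libraries (horizontal axis, bins of 5 points from 20%), for deserts, for CpGs up to 100 kb from a gene and for CpGs inside genes. Between 40% and 95% the line of the deserts lies above that of genes, and from 95% upwards it lies below, at 65.5% of desert CpGs against 87.2% in genes.

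The difference was also seen at like depth and like density, with sizes that varied. Desert CpGs with a mean coverage of 10 to 20 reads were 1.61 points below those in genes of the same coverage (121 desert CpGs). Those with 20 to 30 reads were 2.90 points below those in genes of the same coverage, those with 30 to 40 reads 3.21 points and those with 40 to 60 reads 3.20 points. At 60 to 200 reads the difference was -3.12 points (451 desert CpGs at 87.8%, against 91.0%). CpGs alone in their window differed by 2.88 points (92.6% against 95.5%), and those in windows of 5 or more listed CpGs by 4.35 points (91.7% against 96.0%), lower in 15 of 15 libraries each time. By chromosome, deserts were lower on 18 of 19, most on chromosome 14 (89.6% against 96.3%) and chromosome 15 (89.8% against 96.3%). Chromosome 7 was the exception: its 117 desert CpGs were at 96.7% and its genes at 95.9%, with deserts higher in all 15 libraries. Without chromosome 7 the difference over the other chromosomes was -3.54 points. Weighted by read count, so that the deepest positions in genes counted most, the difference was -0.333 points (exact permutation p = 0.0992). With positions over 200 reads left out it was -3.60 points by the same weighting, and a minimum of 40 reads in every library gave -0.228 points with and -2.58 points without those deep positions.

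Methylation did not fall evenly with distance. CpGs within 10 kb of a gene averaged 94.1% and those from 10 to 100 kb 94.2%, so these neighbouring bins hardly differed. From 100 to 200 kb the mean was 93.4% (3778 CpGs) and from 200 to 500 kb 91.0% (1332 CpGs, of which 27.3% were under 90%). The 38 CpGs beyond 500 kb averaged 92.8%, and in single libraries between 91.0% and 94.3%, a range that reaches both bins before it. Around the 100 kb limit itself, CpGs 90 to 100 kb from a gene averaged 93.6% (950 CpGs) and those 100 to 110 kb away 92.2% (707 CpGs).

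**Figure D3:**
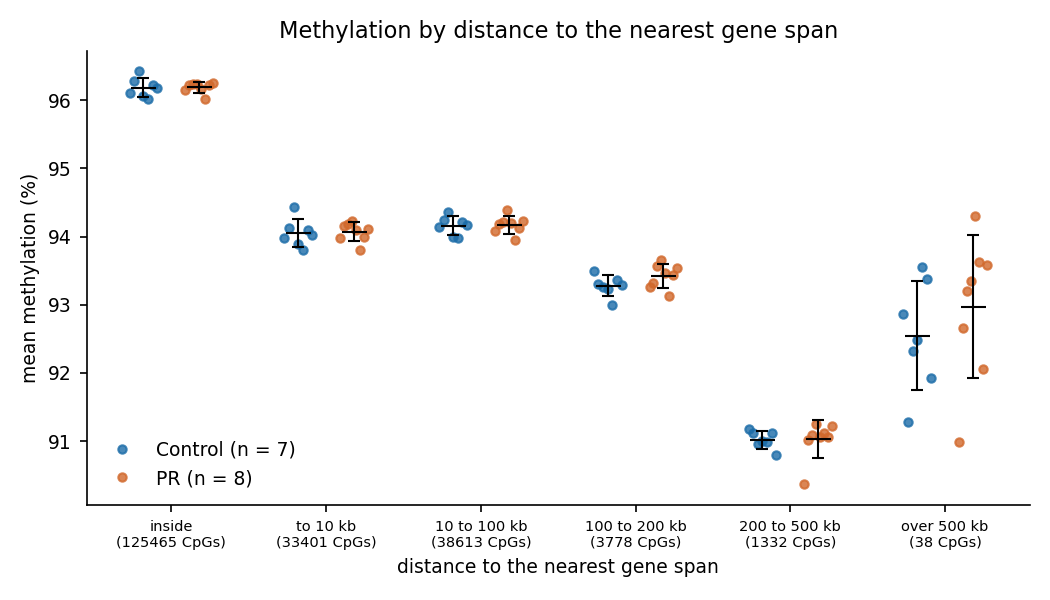
Mean methylation in percent (vertical axis, not starting at 0) in 6 bins of distance to the nearest gene span (horizontal axis, with the number of CpGs); points are libraries, blue for Control (n = 7) and orange for PR (n = 8), with mean and SD in black. The bin from 200 to 500 kb is the lowest, near 91.0% in both diets, and the bin over 500 kb, with 38 CpGs, is the widest.

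CpGs of larger deserts averaged less methylation, a trend that was not tested. CpGs in deserts of 200 to 300 kb averaged 93.9% ± 0.235 (SD over 15 libraries), in those of 300 to 500 kb 93.3% ± 0.165, and in those of 500 to 1000 kb 92.3% ± 0.182. In the 13 deserts over 1000 kb the 277 CpGs averaged 87.6% ± 0.583, and 39.0% of them were under 90%. Single deserts differed widely. Among the 177 with at least 10 listed CpGs, desert means ran from 67.3% to 98.8% with a median of 94.4%. Of these deserts 52 were under 90% and 45 at 97% or more. Differences between deserts made up 24.3% of the variance of CpG levels in this set, by a one-way variance decomposition. That share includes the likeness of CpGs lying close together in a desert, which was not separated from it. Neighbouring CpGs were alike over short distances: adjacent desert CpGs up to 20 bp apart differed by a median of 1.51 points (r = 0.791 over 962 pairs), and those 10 to 100 kb apart by 2.43 points (r = 0.165 over 1263 pairs). These r are across CpG pairs, which are not independent replicates, and close pairs share reads. In genes the pairs up to 20 bp apart had an r of 0.769, with a median difference of 0.763 points. Those 10 to 100 kb apart had an r of 0.0622.

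**Figure D4:**
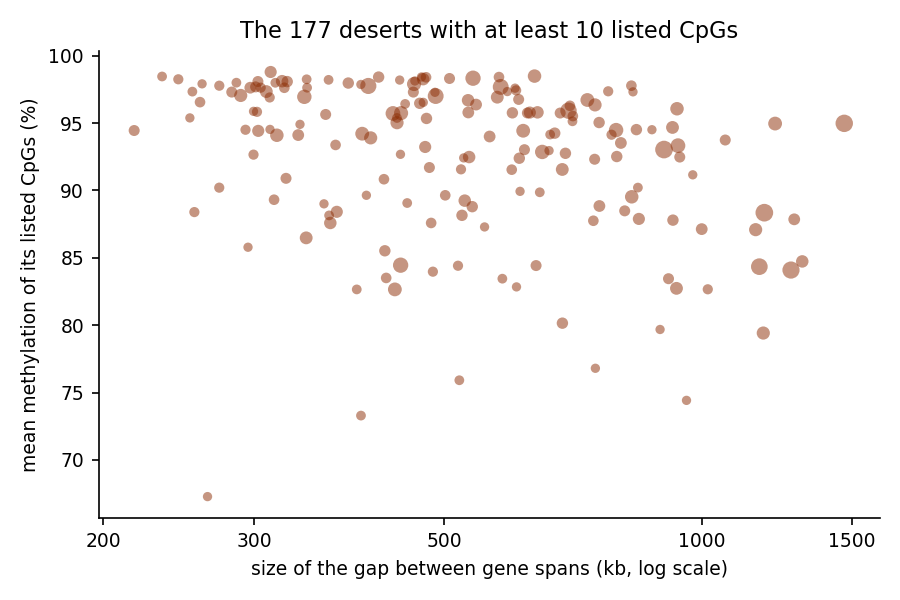
Mean methylation of the listed CpGs (vertical axis, percent, not starting at 0) against the size of the gap between gene spans (horizontal axis, kb, log scale) for the 177 deserts with at least 10 listed CpGs; the area of a point grows with its number of CpGs. Means spread from 67.3% to 98.8%, and both high and low deserts are found among those under 500 kb.

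The deserts with the most listed CpGs ranged from nearly full to partial methylation. The gap between Sorcs3, which encodes a sorting receptor of neurons, and Gm6975 on chromosome 19 (48805506 to 49709520, 36 CpGs) was at 92.7% ± 1.34 in Control (n = 7) and 93.3% ± 0.964 in PR sperm (n = 8). The gap from Gm11919 to 4930556G01Rik on chromosome 4 (29196279 to 30664595, 35 CpGs), whose nearest protein-coding genes are Epha7, an ephrin receptor of axon guidance, and Map3k7, a kinase of inflammatory signalling, was at 95.5% ± 0.463 and 94.6% ± 1.19. On chromosome 18 the 36 CpGs between LOC115488950 and Gm31086, in the interval of the cadherin gene Cdh2 and the desmocollin gene Dsc3, were at 87.8% ± 1.35 and 88.8% ± 1.202. The gap between Gm7899 and Gm9723 on chromosome 3 (41978126 to 43250386, 34 CpGs), towards the protocadherin gene Pcdh10, was at 83.9% ± 1.81 and 84.3% ± 1.93, with 18 CpGs under 90%. The gap between Gm7272 and Gm24127 on chromosome 14 (91200120 to 92368499, 32 CpGs), between the protocadherin genes Pcdh20 and Pcdh9, was at 84.0% ± 0.928 and 84.6% ± 1.53. In each of these deserts the ranges of the diets overlapped.

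The genes bordering deserts were grouped by lists of developmental regulators and of adhesion, guidance and synaptic genes. Of 75 developmental regulators in the annotation, 6 were the nearest span of a desert with listed CpGs, whose 64 CpGs averaged 91.2%, with 28.1% under 90%. Beside Irx1, a homeobox regulator of patterning, 15 CpGs were at 98.0%, and beside Isl1, a homeobox gene of motor neurons and heart, 8 CpGs were at 91.0%. The 27 CpGs beside Zfhx3, a zinc finger homeobox gene, were at 84.5%. Of 74 adhesion, guidance and synaptic genes, 20 bordered a desert, and their 175 CpGs averaged 91.6%, with 21.1% under 90%, the same share as over all desert CpGs. Low values were found beside Cdh12 (11 CpGs, 73.3%), Cadm2 (12 CpGs, 81.5%) and Pcdh9 (13 CpGs, 81.8%), which encode cell adhesion molecules, and high ones beside Adgrl2 (23 CpGs, 97.9%), a synaptic adhesion receptor, and Robo2 (4 CpGs, 97.7%), a receptor of axon guidance.

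Since pseudogenes and predicted genes also count as spans, the lists were also read by the nearest protein-coding gene on either side, a choice made after the data were seen. By that reading 35 developmental regulators bordered 55 deserts, whose 392 CpGs averaged 94.6% ± 0.404 (SD over 15 libraries) with 14.5% under 90%. The 54 adhesion, guidance and synaptic genes bordered 188 deserts, whose 1276 CpGs averaged 90.8% ± 0.284 with 27.1% under 90%. Among the former, 40 CpGs beside Sox9, a regulator of cartilage and testis, were at 97.3%, and 23 beside Gata3, a regulator of T cells and ear, at 96.5%. Lower members of that list were Zfhx3 (27 CpGs, 84.5%) and Nr2f1 (20 CpGs, 91.7%). Among the latter, 50 CpGs beside Pcdh10 were at 81.9%, 67 beside Pcdh9 at 83.2% and 48 beside the cadherin gene Cdh9 at 84.2%. Higher members were Ctnna2, an alpha catenin of neurons (28 CpGs, 96.98%), Adgrl2 (53 CpGs, 95.5%) and Epha7 (75 CpGs, 94.9%). Over all desert CpGs the mean was 92.7%. The lists were not tested against it, and some deserts are bordered by members of both.

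The 61 desert CpGs under 50% lay in 49 windows of 1 kb in 44 deserts. Their mean coverage had a median of 59.1 reads and was at least 37.1. The lowest was a CpG on chromosome 8 (96628095), 224 kb from the nearest span, in the gap between Gm32122 and Gm5131 and between the protein-coding genes Got2 and Cdh8. It was at 24.0% to 33.3% in Control, with a median of 27.1%, and at 21.7% to 36% in PR sperm, with a median of 24.6%, at a mean coverage of 86.5 reads. A CpG on chromosome 6 (11199863) on the side of Ndufa4, a gene of the respiratory chain, averaged 28.3%, and one on chromosome 3 (44298061), 427 kb from the nearest span and towards Pcdh10, 30.4%. A further 6 of the 10 lowest, taken as 1 CpG per 1 kb window, lay between 34.9% and 39.9%, on chromosomes 6, 10, 14, 15 and 19. Among them were a CpG beside the adhesion gene Chl1 at 36.7% and one beside Cdh12 at 37.6%. In each of these CpGs the ranges of the diets overlapped.

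Windows with at least 3 listed CpGs, all in deserts, numbered 539. The lowest was on chromosome 15 (21858001 to 21859000, 3 CpGs, beside Cdh12). It ran from 32.8% to 60.6% in Control, with a median of 38.9%, and from 31.3% to 58.7% in PR sperm, with a median of 41.8%. Next were a window beside Tspan8 on chromosome 10 at 42.8% and a window between Pcdh20 and Pcdh9 on chromosome 14 (89604001 to 89605000) at 44.1%. The deserts of the Cdh12 and the Pcdh20 to Pcdh9 windows also held CpGs at up to 97.9% and 97.2%, whereas the highest of the 3 listed CpGs in the Tspan8 desert was at 47.4%.

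Dispersion, the spread between libraries of one diet relative to counting noise, has a mean of 1 and a median of about 0.949 (chi-square approximation) under counting noise alone. It had a median of 1.004 over desert CpGs and 0.946 over CpGs in genes. A dispersion over 2 was found at 3.34% of desert CpGs and 2.64% in genes. By level, 9.84% of desert CpGs and 30.8% of those in genes passed 2 under 50%, 7.51% and 11.8% from 50% to 80%, 5.20% and 6.20% from 80% to 95%, and 1.958% and 1.72% at 95% or more. Desert CpGs thus had the lower share in each level but the highest. The levels were not matched for depth. Under 50% the median of the mean coverage was 59.1 reads in deserts and 66.9 in genes. Genes also hold 196 CpGs with a mean coverage over 200 reads, against 0 in deserts. The shares were not computed without those, so they are not compared at like depth. The median SD over libraries of a desert CpG was 2.93 points, and 7.80 points for those at 50% to 80%.

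The most variable windows differed between libraries by 25.2 to 39.7 points in both diets together. In the gap between Gm39242 and Zfhx3 on chromosome 8 (108062001 to 108063000, 8 CpGs) Control libraries ran from 61.8% to 79.3% with a median of 73.2%, and PR libraries from 50.3% to 79.0% with a median of 69.7%. Its dispersion was 7.44. A window on chromosome 12 (119772001 to 119773000, 5 CpGs within 118 bp), between Gm9279 and Gm9280 and flanked by the protein-coding genes Macc1 and Tmem196, ran from 47.0% to 86.7% in Control and from 60.4% to 82.7% in PR sperm, with medians of 66.1% and 68.1%. Windows on chromosome 11 (9890001 to 9891000, between Abca13 and Vwc2), chromosome 13 (106073001 to 106074000, between Htr1a and Ipo11) and chromosome 3 (112732001 to 112733000, between Prmt6 and Amy2b) had dispersions of 5.85, 5.67 and 5.66. Within these windows most CpGs moved together, with a median r between CpG pairs over the 15 libraries from 0.555 to 0.866, where CpGs of 1 window share reads. The highest library was a Control library in each of the 5, Control replicate 2 in 3 of them, and the lowest was a PR library in 2.

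**Figure D5:**
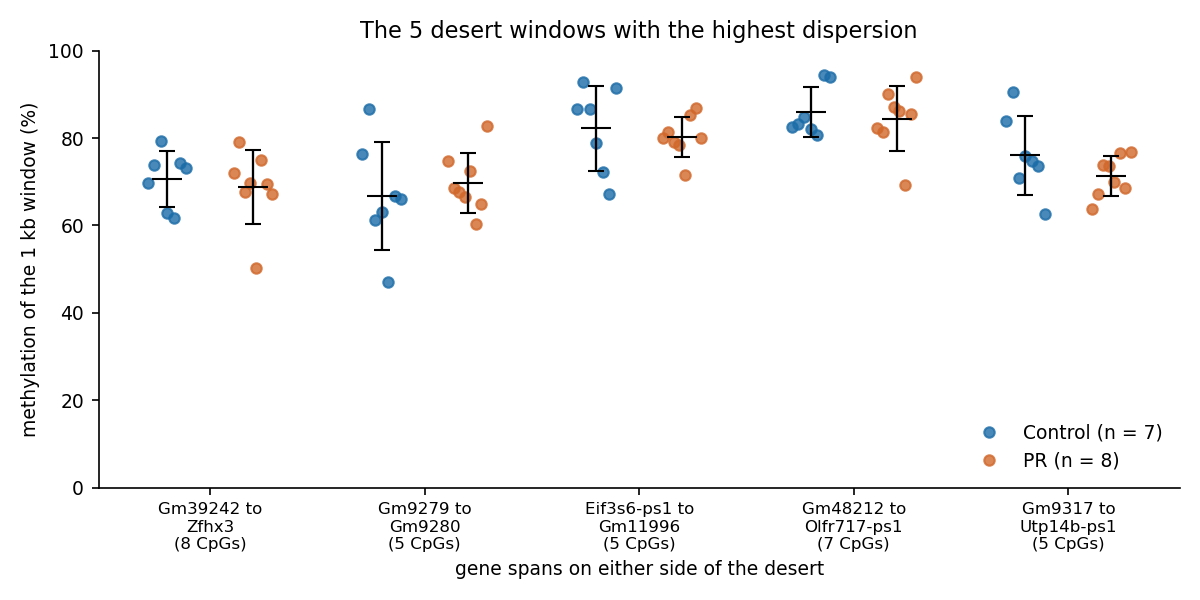
Methylation in percent (vertical axis) of the 5 desert windows with the highest dispersion, named by the gene spans on either side (horizontal axis); points are libraries, blue for Control (n = 7) and orange for PR (n = 8), with mean and SD in black. Libraries spread over 25.2 to 39.7 points within a window, and the diets overlap in each.

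Between the diets, mean methylation of the deserts was not distinguishable. Control libraries averaged 92.7% ± 0.130 (SD, n = 7) and PR libraries 92.8% ± 0.182 (SD, n = 8). The difference, 0.111 points with a 95% interval from -0.0701 to 0.290, was no larger than library spread (exact permutation test, two-sided, p = 0.201). Its size depended on how the CpGs were chosen and weighted: it was -0.00566 points weighted by read count, 0.177 points with at least 20 reads in every library, 0.0154 points over 200 kb from genes and 0.429 points over 500 kb, with exact permutation p of 0.967, 0.0688, 0.932 and 0.390. Of the PR libraries 6 of 8 were above the Control mean. In genes the difference was 0.00335 points (exact permutation p = 0.954, 95% interval -0.122 to 0.125). The gap between deserts and genes was -3.49 ± 0.169 points in Control (SD, n = 7) and -3.39 ± 0.143 in PR sperm (SD, n = 8), and these differed by 0.108 points (exact permutation p = 0.205, 95% interval -0.0677 to 0.280). Both tests on the deserts had an adjusted p of 0.205 (exact permutation tests, Benjamini-Hochberg over 2). By distance, Control and PR sperm were at 93.3% ± 0.154 and 93.4% ± 0.177 from 100 to 200 kb, at 91.0% ± 0.130 and 91.0% ± 0.278 from 200 to 500 kb, and at 92.5% ± 0.800 and 93.0% ± 1.04 beyond 500 kb (SD, n = 7 and 8), with overlapping ranges in each bin. Over the libraries (n = 15), desert means and means in genes had a Pearson r of 0.369 (permutation p = 0.176) and a Spearman rho of 0.536 (permutation p = 0.0421), or 0.176 and 0.0843 when adjusted over these 2 (Benjamini-Hochberg). Without the 2 libraries farthest from the median, Control replicates 3 and 5, r was 0.463 (permutation p = 0.111) and rho 0.549 (permutation p = 0.0557). Within Control r was 0.222 (exact permutation p = 0.642) and rho 0.429 (exact permutation p = 0.354). Within PR r was 0.660 (exact permutation p = 0.0705) and rho 0.810 (exact permutation p = 0.0218, adjusted over the pair 0.0436). Each adjustment covered only the 2 coefficients of 1 setting and not the several settings tried. The difference between the diets in the relation of desert means to means in genes was not tested.

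Among single desert CpGs, 0 of 5148 passed the quasi-binomial test at an adjusted p under 0.05, as did 0% of all 204492 CpGs. At an unadjusted p under 0.05 there were 197, or 3.83%, against 3.79% of all CpGs. Of these 97 were higher in PR sperm (1.88%, against 1.89% of all CpGs) and 100 lower (1.94%, against 1.9%). The median difference over desert CpGs was 0.101 points, with 2701 higher and 2438 lower in PR sperm, against a median of 0 over all CpGs. The diets were at least 10 points apart at 11 desert CpGs (0.214%, against 0.121% of all CpGs) and in 0 desert windows (against 0.0139% of all windows), which involves no test. By limma 0 desert CpGs passed with percentages, where 268 had an unadjusted p under 0.05 (5.21%, against 4.56% of all CpGs), and 0 with logits, where 241 did (4.68%, against 4.56%). Of the 539 windows 0 passed, as did 0% of 28743 windows, and 18 had an unadjusted p under 0.05 (3.34%, against 3.33% of all windows), 11 of them higher (2.04%, against 1.64%) and 7 lower (1.30%, against 1.69%). By limma 0 windows passed with percentages, 28 of them having an unadjusted p under 0.05 (5.19%, against 4.75% of all windows), and 0 passed with logits, 25 having one (4.64%, against 5.08%).

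The CpGs and windows with the smallest p, none of which passed, were 1.25 to 6.57 points higher or 1.92 to 11.4 points lower in PR sperm. On chromosome 17 a CpG (94456129) between the protein-coding genes Adcyap1, which encodes a neuropeptide, and Mettl4, a methyltransferase gene, ran from 96.6% to 100% in Control, with a median of 98.2%, and from 91.2% to 96.7% in PR sperm, with a median of 93.8%. Its difference was -4.47 points, lower than the Control mean in 8 of 8 PR libraries (quasi-binomial unadjusted p = 0.00291, adjusted p = 1). On chromosome 6 a CpG (20770176) on the side of Kcnd2, a potassium channel gene, was at 100% in every Control library and from 95.7% to 98.7% in PR sperm, the only one of the 10 named CpGs at which the diets did not overlap. Its difference was -2.50 points at a mean coverage of 52.5 reads, so it amounts to very few reads per library (quasi-binomial unadjusted p = 0.00338, not passing when adjusted). The 10 were picked by smallest p, which favours separate ranges, and the share of all CpGs without overlap is not given here. The CpG with the largest difference of the 10 was on chromosome 5 (42703499), between Gm40295 and Gm5554, at 77.3% ± 5.29 in Control (n = 7) and 66.0% ± 7.83 in PR sperm (n = 8). Among the higher CpGs, one in the Sorcs3 gap on chromosome 19 (49532942) was at 95.05% ± 4.50 in Control and at 100% in every PR library, and one on chromosome 14 (80490515), on the side of the protocadherin gene Pcdh17, at 91.3% ± 4.87 and 97.9% ± 2.42.

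Of the windows, one on chromosome 16 (82779001 to 82780000, 3 CpGs), between Gm7559 and Rpl21-ps5 and in the interval of the cell adhesion gene Ncam2 and the mitochondrial ribosomal gene Mrpl39, had the smallest p. It ran from 97.9% to 100% in Control, with a median of 100%, and from 90.2% to 96.97% in PR sperm, with a median of 96.0%, so the diets did not overlap. The difference was -4.22 points at a mean coverage of 20.0 reads per CpG (quasi-binomial unadjusted p = 0.00306, adjusted p = 0.999). The named windows were also picked by smallest p, and the share of all windows without overlap is not given here. On chromosome 9 (11822001 to 11823000, 4 CpGs), towards Cntn5, which encodes a contactin of neurons, Control sperm was at 91.7% ± 2.39 (n = 7) and PR sperm at 85.9% ± 3.86 (n = 8), lower than the Control mean in 8 of 8 libraries. On chromosome 16 (68662001 to 68663000), towards Cadm2, Control libraries ran from 95.3% to 98.5% and PR libraries from 92.6% to 96.2%. Higher in PR sperm without passing were a window on chromosome 1 (142127001 to 142128000, 6 CpGs), between the potassium channel gene Kcnt2 and the tumour suppressor gene Cdc73, at 82.9% ± 3.84 and 87.5% ± 2.72, and one beside Pcdh9 on chromosome 14 (94306001 to 94307000) at 43.5% ± 4.58 and 48.3% ± 3.50. Each of the 10 named windows had an adjusted p of 0.999 by the quasi-binomial test.

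The CpGs farthest from any gene lay in the Epha7 to Map3k7 interval of chromosome 4. The farthest (29958043, 707 kb away) was at 97.9% ± 2.56 in Control (n = 7) and 98.1% ± 2.22 in PR sperm (n = 8). A pair 673 kb away (29869548 and 29869632) was lower and more spread, at 89.9% ± 5.71 and 90.8% ± 7.43, and at 92.4% ± 6.25 and 86.7% ± 8.91. The remaining 2 of the 5 farthest averaged 97.7% and 98.3%. None of these 5 differed between diets beyond the spread (unadjusted quasi-binomial p from 0.315 to 0.820).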

How the data were processed

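RRBS was done on sperm DNA digested with MspI, per the labels' protocols. The authors deposited 1 table per library with the raw count of methylated reads and the total read count at each CpG, per the file headers. The submitters' processing notes name Bismark 0.7.12, Bowtie2 2.1.0 and mm10. Trimming and filters are not stated there. All 15 files list the same 204492 positions, with at least 11 methylated reads each, so a minimum of 10 reads removed none. The rule behind that list affects levels: CpGs of low methylation are listed only at depth. No pair of libraries had identical counts.

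Percent methylation was methylated over total counts, averaged over CpGs with equal weight. Distances were taken to 47042 gene spans of all types in a RefSeq table of GRCm38.p6, which may not hold every gene. Deserts lie more than 100 kb from any span. Each CpG, and each 1 kb window with at least 3 listed CpGs, was tested over the whole table with a quasi-binomial logistic model of counts on diet (F test, 13 residual degrees of freedom, dispersion at least 1, Benjamini-Hochberg at 0.05). Values with 1 number per library were compared by exact permutation, and intervals were obtained by inverting that test. Replicates were numbered in accession order. Scripts were tested on simulated data. Python 3.11.15, numpy 2.4.6, scipy 1.17.1, pandas 2.3.3, R 4.3.3 and limma 3.58.1 were used. Members, lists and tests were chosen with earlier results of these data known. Named units are the 5 CpGs and 5 windows of smallest p in each direction (1 per desert), the 10 lowest CpGs (1 per 1 kb window) and the 5 lowest windows, the 5 most variable windows, the 5 farthest CpGs and the 5 deserts with most CpGs. Sequences of the deserts were not analysed here. One of the lowest CpGs is not reported here.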

Additional observations from a re-analysis of the deposited data

Results flagged for a closer look

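For 98 sets of values of 1 diet, the highest and lowest library were compared with the rest, and in 9 sets one stood apart by Dixon's criterion, which chance alone meets in about 1 of 20. Mean methylation in genes was 96.0% in PR replicate 6, against 96.1% to 96.2% in the other PR libraries, and this was the library with the fewest reads. Control replicate 4 had 275640 counts over desert CpGs, against 177236 to 209924 in the other Control libraries. In the window on chromosome 2 (57757001) PR replicate 6 had 95.6% and the other PR libraries 98.04% or more. At the low CpG beside Cdh12 on chromosome 15 (21858448) a level of 52.9% in Control replicate 1 stood beside 28.6% to 38.4% in the other Control libraries. The low CpG on chromosome 14 (89604863) had 27.7% in Control replicate 5 and 38.6% to 46.5% in the others. In the variable window in the gap beside Zfhx3 on chromosome 8 (108062001) PR replicate 5 was at 50.3%, against 67.3% to 79.0%. Among the CpGs farthest from genes on chromosome 4, Control replicate 3 was at 92.9% at 29958043, against 97.3% or more, PR replicate 1 at 75% at 29869548, against 88.3% or more, and Control replicate 5 at 93.9% at 29841139, against 97.6% or more.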

How the results depend on the processing

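No paired analysis was possible because the labels give no replicate numbers and the libraries were numbered in accession order. Weighting by coverage gave a diet difference of -0.00566 points in the deserts and -0.132 points for the gap between deserts and genes, the reverse of the equal-weight signs, and both were within the spread (exact permutation p = 0.967 and 0.741). It also lowered the gap between deserts and genes to -0.333 points, and a minimum of 40 reads in every library, chosen after the data were seen, to -0.228 points. With positions over 200 reads left out as well, the gap was -3.60 and -2.58 points. The gap kept its direction and passed under the other alternatives run, at -2.66 points for deserts over 50 kb from genes and -5.11 over 200 kb. Without each replicate in turn it ran from -3.45 to -3.41 points, the diet difference from 0.0758 to 0.155 points, and the diet difference of the gap from 0.0627 to 0.156. Over 200 kb and over 500 kb the diet difference was 0.0154 and 0.429 points. The count of called CpGs and windows was 0 under each alternative run. CpGs under 50% numbered 24 in deserts over 200 kb from genes, and 60 to 64 without each replicate in turn. CpGs with only methylated reads numbered 1 over 200 kb, 1 with 20 reads in every library, and 9 to 15 without each replicate, with 15 without Control replicate 4 or 6 and 14 without Control replicate 7. Median dispersion was 1.04 over 200 kb, 1.03 with 20 reads, and 0.988 to 0.99961 without each replicate. An unadjusted p under 0.05 was found at 482 of 13051 CpGs over 50 kb (3.69%) and 47 of 1370 over 200 kb (3.43%). In the deserts as defined it was 3.83%, and over all CpGs 3.79%. With 20 reads in every library it was 93 of 2846 (3.27%), for which no share over all CpGs was recorded. For windows it was found in 64 of 1517 over 50 kb (4.22%) and 9 of 131 over 200 kb (6.87%). In the desert windows as defined it was 3.34%, and over all windows 3.33%. By limma on percentages it was 28 of 539 (5.19%), against 4.75% of all windows. With at least 2 CpGs it was 38 of 1175 (3.23%) and with at least 5 it was 5 of 133 (3.76%). For these 2 settings no share over all windows was recorded. Depth limits single CpGs, whose counting error at 50% reached 18.9 points in the shallowest library.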

Other observations

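The least and most methylated deserts, among those with at least 10 listed CpGs, were picked out after their values were seen. The lowest lay between Gm9279 and Gm9280 on chromosome 12 (119612007 to 119876638), where all 10 CpGs were under 80%, at 65.8% ± 9.86 in Control (SD, n = 7) and 68.6% ± 5.39 in PR sperm (SD, n = 8). It is also the desert of the variable chromosome 12 window. Next came the deserts beside Cdh12 (73.3%), between Gm29739 and Gm18866 towards Pcdh10 (74.4%), beside S100a7l2, of the family of calcium-binding S100 genes (75.9%), and between Gm18714 and Gm9630 in the interval of Cdh6 and Cdh9 (76.8%). In the Cdh12 desert single CpGs ran from 37.6% to 97.9%, whereas in the chromosome 12 desert they stayed between 57.7% and 71.8%.

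The most methylated deserts had no CpG under 90%. The highest lay beside Lrfn2, a synaptic adhesion gene, on chromosome 17 (48617955 to 48931589, 17 CpGs), at 98.7% ± 0.608 in Control (SD, n = 7) and 98.9% ± 0.495 in PR sperm (SD, n = 8). A desert on chromosome 2 (159139493 to 159777511, 21 CpGs) was at 98.5%, and those beside Gadd45g, a gene of DNA damage response, and Dcc, a netrin receptor of axon guidance, at 98.5% and 98.4%. Among the 177 deserts with at least 10 listed CpGs the diet difference ran from -2.11 to 2.84 points, with 100 higher and 77 lower in PR sperm.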
